A study of Mus musculus with 13 samples.

Results

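The wild-type libraries of this small RNA-seq experiment describe the miRNAs of thymic iNKT cells, the lipid-specific T cells with an invariant TCR, in mice with no engineered deletion. They are 6 of the 13 libraries of the series, chosen by the genotype label, and the libraries of the other genotype were not used. Each library came from 1 C57BL/6 mouse aged 21 to 25 days, and mice of both sexes were used. Thymocytes were depleted of CD24+ cells, and live TCRβ+ cells that bound the lipid-loaded CD1d tetramer were sorted, so the libraries mix all iNKT stages and subsets that passed this gate. Counts on mature sequences summed to between 1110852 and 2582057 per library, with a median of 1987326.5.

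A miRNA gene is transcribed as a long primary transcript, from which Drosha cuts a hairpin precursor and Dicer then releases a short duplex. One strand of the duplex, from the 5p or the 3p arm of the hairpin, is usually kept by an Argonaute protein and the other is degraded. Bases 2 to 8 of the kept strand, the seed, pair with target mRNAs, so that mature miRNAs with the same seed form a family, and hairpins that lie close together can share a primary transcript.

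The miRNAs on which the abundance order turned are printed here from 5′ to 3′, from the RefSeq annotation of GRCm38, with the seed in capitals. They are shown by family, so that members with the same seed can be read against each other.
miR-16-5p: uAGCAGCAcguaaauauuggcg
miR-15b-5p: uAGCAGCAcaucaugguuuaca
miR-181a-5p: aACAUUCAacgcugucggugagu
miR-181b-5p: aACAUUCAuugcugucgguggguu
let-7g-5p: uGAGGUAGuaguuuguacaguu
let-7f-5p: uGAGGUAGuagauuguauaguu
let-7a-5p: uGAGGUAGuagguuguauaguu
let-7d-5p: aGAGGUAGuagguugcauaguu
miR-26a-5p: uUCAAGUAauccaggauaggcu
miR-191-5p: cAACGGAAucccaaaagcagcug
miR-27b-3p: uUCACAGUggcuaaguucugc
miR-27a-3p: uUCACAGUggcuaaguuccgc
miR-142a-3p: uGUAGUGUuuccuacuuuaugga
miR-23a-3p: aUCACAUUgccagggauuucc
miR-24-3p: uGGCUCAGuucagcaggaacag

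Few sequences carried most of the counts. Of 1297 mature sequences listed, 995 had a count in at least 1 wild-type library and 428 had one in all 6. A mean of at least 100 CPM (counts scaled to a library total of 1000000) was reached by 150 sequences, at least 1000 CPM by 64 and at least 10000 CPM by 21. In each library 6 or 7 sequences held the first 50% of the counts, between 32 and 35 held 90%, and between 117 and 127 held 99%. The 10 most abundant of each library held between 62.9% and 63.7% of its counts, and the 20 most abundant between 81.7% and 82.8%. The shape of the distribution thus varied little between libraries, while the levels of single miRNAs varied more. A sequence with no count in a library may still have been present at up to 2.72 CPM in the shallowest library and 1.17 CPM in the deepest, the limits that 3 counts set, and these limits cover counting error only.

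miR-16-5p, which is known to restrain cyclins and BCL2, was the most abundant miRNA in 5 of 6 libraries. Its share was 14.3% in the lowest library, 15.5% at the median and 17.2% in the highest, with a mean of 15.8% ± 1.22 (SD, n = 6). miR-181a-5p, which tunes TCR signalling in thymocytes and is needed for iNKT development, came next with 10.7% in the lowest library, 12.5% at the median and 15.4% in the highest, a mean of 12.9% ± 2.01 (SD, n = 6). The ranges of the 2 miRNAs overlapped, and in WT 2 miR-181a-5p stood first, with 15.4% against 14.3% for miR-16-5p. Their levels did not differ beyond the spread between libraries, with a mean log2 ratio of 0.30 ± 0.30 (SD, n = 6), p = 0.09375 and adjusted p = 0.297 in a two-sided exact permutation test over the sign changes of the 6 ratios. Both were above every other miRNA in all 6 libraries.

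The third to eighth places were held by let-7g-5p (7.27% ± 0.65), let-7f-5p (5.51% ± 0.473), miR-191-5p (4.55% ± 0.468), miR-26a-5p (4.38% ± 0.445), let-7a-5p (4.01% ± 0.483) and miR-15b-5p (3.55% ± 0.586), each as mean share ± SD over n = 6 libraries. let-7 miRNAs are known to repress Zbtb16, which encodes the iNKT lineage factor PLZF. Places 9 to 14 were nearly level, from let-7d-5p at 2.58% ± 0.0886 (SD, n = 6) through miR-142a-3p, miR-150-5p, miR-23a-3p and miR-24-3p to miR-27b-3p at 2.14% ± 0.156 (SD, n = 6). miR-150-5p, which represses Myb and marks mature lymphocytes, ranged over these places from rank 8 to rank 16, with a lowest share of 1.77%, a median of 2.26% and a highest of 3.21%. The remaining places of the first 20 were taken by miR-27a-3p, miR-181b-5p, miR-23b-3p, let-7c-5p, miR-103-3p and let-7i-5p, between 2.00% and 1.35%. The 20 miRNAs together held 82.1% of the counts, and 17 of the 20 were among the first 20 of every library.

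**Figure D1:**
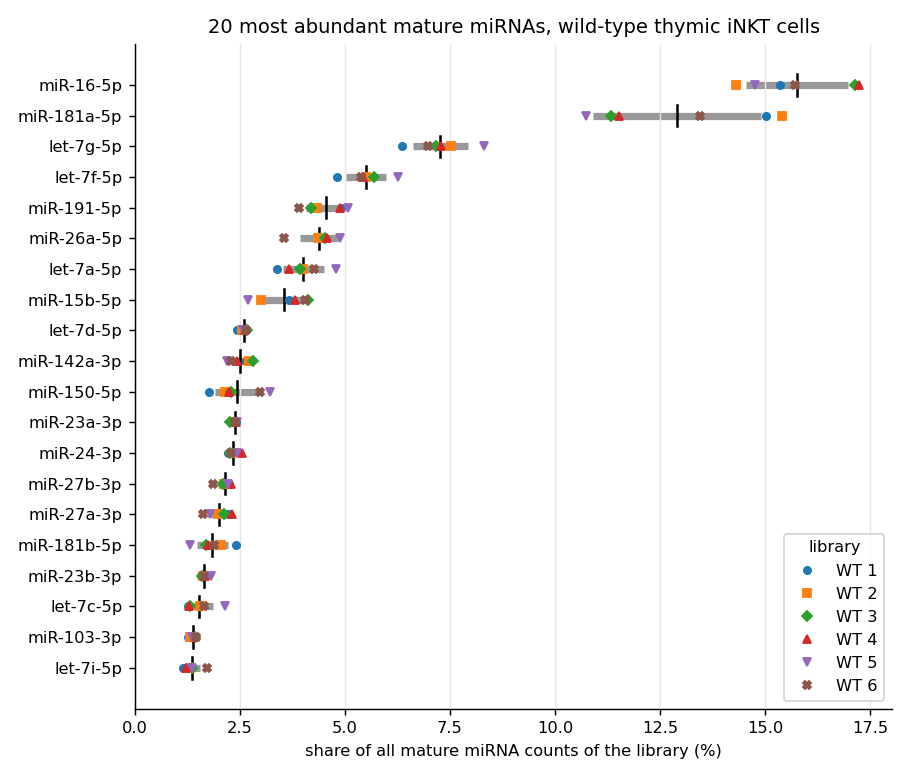
Shares of all mature miRNA counts (%, horizontal axis) of the 20 most abundant mature miRNAs, with 1 symbol per wild-type library, a black line at the mean and a grey bar of 1 SD to each side (n = 6). The symbols of miR-16-5p (14.3% to 17.2%) and miR-181a-5p (10.7% to 15.4%) overlap each other and lie apart from those of let-7g-5p (6.35% to 8.32%) and all miRNAs under it.

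Neighbours in this order were seldom separated. Of the 19 pairs of neighbours among the first 20, 3 kept their order in all 6 libraries, which gives the smallest p that 6 libraries allow (p = 0.03125, two-sided exact permutation test). These were miR-181a-5p over let-7g-5p, let-7g-5p over let-7f-5p and miR-15b-5p over let-7d-5p, with mean log2 ratios of 0.82 ± 0.31, 0.40 ± 0.04 and 0.44 ± 0.24 (SD, n = 6). After adjustment over the 19 pairs no p was under 0.05, the smallest adjusted p of these exact permutation tests being 0.198. An adjusted p under 0.05 would have needed most of the 19 pairs to reach the smallest p, so the adjusted values say little. The same limit applies to the neighbouring families and clusters below. The ratio of let-7g-5p to let-7f-5p was the steadiest of the 3, while the place of miR-150-5p next to miR-23a-3p rested on a log2 ratio of 0.01 ± 0.31 (SD, n = 6).

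Grouped by seed, the repertoire was led by let-7. The let-7 seed was shared by 9 sequences of at least 100 CPM, let-7a to let-7g, let-7i and miR-98-5p, and together they held 20.3% of the counts in the lowest library, 23.1% at the median and 26.4% in the highest, a mean of 23.1% ± 1.98 (SD, n = 6). WT 1 was the lowest of the 6 and WT 5 the highest. Within the family let-7g-5p supplied 31.5% ± 1.10, let-7f-5p 23.8% ± 0.704, let-7a-5p 17.3% ± 0.68 and let-7d-5p 11.2% ± 0.825 of the family's counts (SD, n = 6), so no member held a majority. The least abundant were let-7b-5p (1.78% of the family), miR-98-5p (1.08%) and let-7e-5p (0.859%). let-7j, whose seed differs, stood outside this family at 0.474% ± 0.0901 of all counts (SD, n = 6).

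The miR-15/16 family held 19.7% ± 1.74 of the counts (SD, n = 6; lowest 17.7%, median 19.8%, highest 21.7%) and the miR-181 family 14.9% ± 2.34 (SD, n = 6; lowest 12.2%, median 14.5%, highest 17.6%). Unlike let-7, each was dominated by 1 member. miR-16-5p made up 80.0% ± 1.72 of the miR-15/16 family (SD, n = 6), before miR-15b-5p at 18.0%, miR-15a-5p at 1.64% and miR-322-5p at 0.392%. miR-181a-5p made up 86.5% ± 0.979 of the miR-181 family (SD, n = 6), before miR-181b-5p at 12.3%, miR-181d-5p at 0.861% and miR-181c-5p at 0.375%. The miR-181 family was highest in WT 2 (17.6%) and WT 1 (17.6%) and lowest in WT 5 (12.2%), the library in which let-7 was highest. Shares of 1 library sum to 100%, so the share of 1 family cannot rise without another falling.

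The other families among the first 10 were smaller. miR-26 held 5.68% ± 0.666, miR-191 4.55% ± 0.468, miR-27 4.14% ± 0.392, miR-142a-3p 2.51% ± 0.251, miR-23a-3p 2.37% ± 0.0578, miR-24-3p 2.34% ± 0.121 and the miR-17/93 seed 2.05% ± 0.244 (SD, n = 6). The miR-27 family was the only one of the 10 split almost evenly between 2 sequences, with 51.7% ± 2.20 on miR-27b-3p and 48.3% ± 2.20 on miR-27a-3p (SD, n = 6). In the miR-17/93 family, known for driving proliferation of lymphocytes, miR-93-5p supplied 30.01%, miR-17-5p 25.3%, miR-20a-5p 21.2%, miR-106b-5p 9.57%, miR-20b-5p 8.01% and miR-106a-5p 5.90% of the family's counts. The first 5 families held 68.0% of all counts and the first 10 held 81.4%, while 6.48% of the counts were on names with no sequence in the reference table, which belong to no seed family here. Among these were miR-150-5p (2.44%) and miR-23b-3p (1.65%), so both are absent from the order of families. Grouped by name number instead, miR-23 held 4.02% ± 0.127 (SD, n = 6), above miR-142 at 2.95%, and miR-150 held 2.46% and stood 10th. Of the 9 pairs of neighbouring families, 5 kept their order in all 6 libraries, among them let-7 over miR-15/16 and miR-15/16 over miR-181, each with p = 0.03125 and adjusted p = 0.0563 in the exact permutation test.

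**Figure D2:**
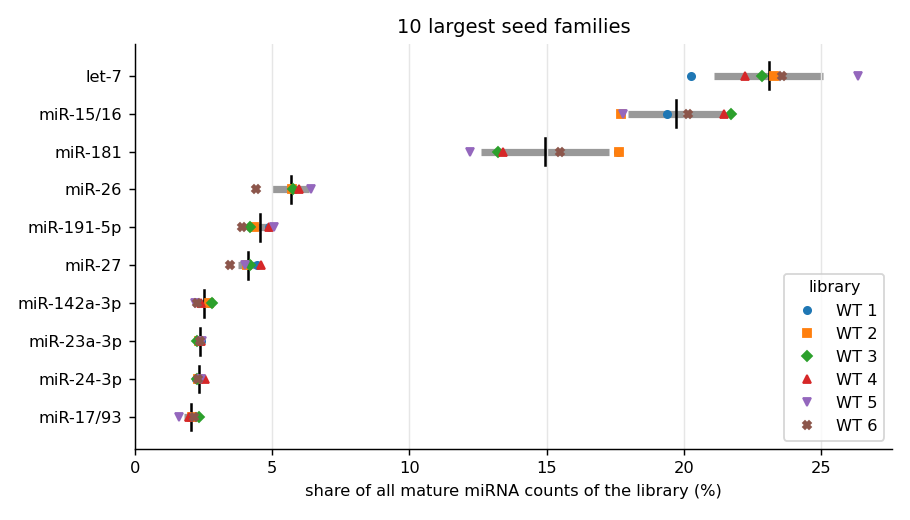
Shares of all mature miRNA counts (%, horizontal axis) of the 10 largest seed families, with 1 symbol per wild-type library, a black line at the mean and a grey bar of 1 SD to each side (n = 6). The let-7 family (20.3% to 26.4%), the miR-15/16 family (17.7% to 21.7%) and the miR-181 family (12.2% to 17.6%) stand apart from the miR-26 family and the rest, which are at or under 6.41%.

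Members of 1 family differ by few bases, and how reads that match several of them were counted is not given in the sources used here. Shares between let-7 members, between miR-27a-3p and miR-27b-3p, and between members of the miR-181 and miR-17/93 families are uncertain for that reason, whereas the sum of a family is less affected.

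Most counts came from hairpins with near neighbours. Hairpins on the same strand within 10 kb of the next were taken as 1 cluster, positions came from the GENCODE annotation of GRCm38, and the counts of a mature sequence that several hairpins can make were divided equally among them. On that basis 74.0% of the counts came from clusters of at least 2 hairpins and 25.5% from single hairpins. The 10 largest clusters held 67.4%.

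The largest was that of mir-15b and mir-16-2 in an intron of Smc4 (chr3:69009772-69009996, + strand), with 11.4% ± 1.13 (SD, n = 6; lowest 10.1%, median 11.6%, highest 12.7%). The cluster of mir-16-1 and mir-15a in an intron of the noncoding gene Dleu2 (chr14:61631880-61632110, - strand) followed with 8.20% ± 0.626 (SD, n = 6). Both make the same mature miR-16-5p, and the 3p arms of miR-16, which differ between the copies, had 76 counts together over the 6 libraries, so the partners carry nearly all counts that tell the clusters apart. miR-15b-5p, from the Smc4 intron, stood at 35550 CPM and miR-15a-5p, from Dleu2, at 3222 CPM. Counting only sequences that 1 cluster alone can make, the Smc4 cluster held 3.56% and the Dleu2 cluster 0.322%, and with miR-16-5p counted in full in each they held 19.3% and 16.1%. The Smc4 cluster was ahead in all 6 libraries (p = 0.03125, adjusted p = 0.0703, exact permutation test), an order set by the unshared sequences, since miR-16-5p is divided equally.

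The 2 copies of the miR-181 pair held places 3 and 5 among the clusters. The mir-181a-1 and mir-181b-1 cluster (chr1:137966455-137966718, + strand) was assigned 7.50% ± 1.19 and the mir-181a-2 and mir-181b-2 cluster (chr2:38852735-38853918, + strand) 7.39% ± 1.17 (SD, n = 6). Almost all of this was sequence that both make, divided equally, so the difference between them rests on the 3p arms. The 3p arms, which differ between the copies, gave 1264 CPM for miR-181a-1-3p and 106 CPM for miR-181a-2-3p. On chromosome 1, mir-181b-1 lies in an exon of the lincRNA A430106G13Rik and both hairpins lie in an intron of the noncoding gene Gm4258, and on chromosome 2 the annotation gives no host gene on that strand.

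The let-7d, let-7f-1 and let-7a-1 cluster, in exons of the lincRNA 6720427I07Rik (chr13:48536012-48538272, - strand), was assigned 7.44% ± 0.509 (SD, n = 6). let-7f-2 with mir-98, in introns of Huwe1 (chrX:151912346-151913321, + strand), was assigned 3.00% ± 0.24 (SD, n = 6). Counting only unshared sequences, these clusters held 2.68% and 0.249%, and with shared sequences in full 12.2% and 5.76%. let-7g, a single hairpin in an intron of Wdr82 (chr9:106178840-106178927, + strand), held 7.27% ± 0.649 (SD, n = 6) with no sharing, so its value does not depend on how counts are divided. The 2 related clusters mir-23a, mir-27a and mir-24-2 (chr8:84208518-84208921, + strand, no host gene annotated on that strand) and mir-23b, mir-27b and mir-24-1 (chr13:63300484-63301275, + strand, in 2010111I01Rik) held 5.57% ± 0.277 and 4.96% ± 0.228 (SD, n = 6). The first was ahead in all 6 libraries by a log2 ratio of 0.17 ± 0.06 (SD, n = 6; p = 0.03125, adjusted p = 0.0703, exact permutation test). mir-191 and mir-425, in exons of the lincRNA 4833445I07Rik (chr9:108568319-108568861, + strand), held 4.61% ± 0.466 (SD, n = 6), nearly all of it miR-191-5p.

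**Figure D3:**
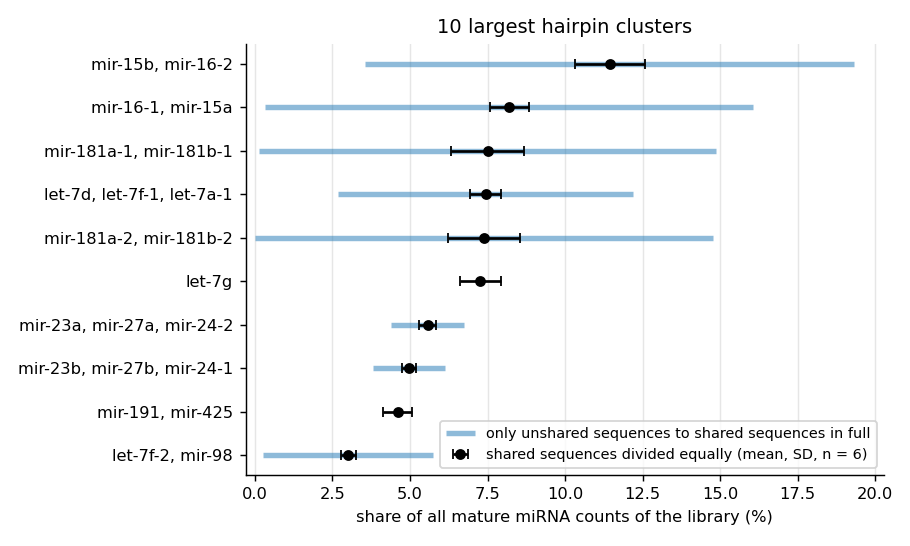
Shares of all mature miRNA counts (%, horizontal axis) of the 10 largest hairpin clusters. Black points and bars are mean and SD over 6 wild-type libraries with shared mature sequences divided equally, and blue bars run from the mean share of unshared sequences to the mean share with shared sequences counted in full. The blue bars of mir-15b with mir-16-2 (3.56% to 19.3%) and of mir-16-1 with mir-15a (0.322% to 16.1%) are equally wide, and let-7g and mir-191 with mir-425 have no width.

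Mature counts differed between hairpins of 1 cluster. In the mir-17 cluster (chr14:115043671-115044506, + strand), a driver of lymphocyte proliferation, both arms together stood at 5836 CPM ± 841 for mir-17, 4441 CPM ± 713 for mir-20a, 1772 CPM ± 478 for mir-18a and 19.3 CPM ± 4.50 for mir-19a (SD, n = 6). mir-92a and mir-19b can also come from the mir-106a cluster on chromosome X, and stood at 1904 CPM and 162 CPM with every copy counted in full. In precursor counts mir-17, mir-20a, mir-18a and mir-19a kept this order. There mir-92a-1 was the highest of the cluster, with a mean of 20344 counts against 3018 for mir-17. miR-25, miR-93 and miR-106b of the mir-25 cluster (chr5:138165321-138165818, - strand) spanned a narrower range, at 8728 CPM, 6196 CPM and 2374 CPM. A run of 70 hairpins of the mir-466, mir-467 and mir-669 kind (chr2:10466663-10518279, + strand), singled out after its values were seen, held 1.53% ± 0.17 (SD, n = 6).

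Arm use was nearly all or none. Both arms were listed for 419 miRNAs, these held 98.5% of the counts, and 286 of them had counts on both arms. Of the 164 with a mean of at least 50 counts over both arms, 106 had more counts on the 5p arm (64.6% called in that direction) and 57 more on the 3p arm (34.8% called), each at an adjusted p under 0.05 in edgeR's quasi-likelihood test with library as a block and Benjamini-Hochberg adjustment. Of the 164, 16 had an arm whose counts were also those of another miRNA, so the calls are not all separate cases. The 5p arms held 80.8% ± 0.372 of the counts of these miRNAs (SD, n = 6), with shared arms counted for each miRNA. The larger arm held a median of 98.6% of a miRNA's counts, at least 90% for 129 miRNAs and at least 99% for 73. The larger arm was the same in all 6 libraries for 161 of the 164.

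All of the let-7 miRNAs among the first 20 came from the 5p arm, and so did miR-16, miR-181a, miR-181b, miR-191, miR-26a, miR-15b and miR-150. The 3p arm led for miR-142a, miR-23a, miR-23b, miR-24, miR-27a, miR-27b and miR-103. miR-16 had 99.9957% ± 0.0018 of its counts on the 5p arm and miR-23a 99.95% ± 0.0211 on the 3p arm (SD, n = 6). A few abundant miRNAs kept a measurable second arm. let-7d had 96.6% ± 0.183 on the 5p arm (SD, n = 6), which leaves let-7d-3p at 0.0921% of all counts, and miR-181a had 98.9% ± 0.221 (SD, n = 6).

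miR-142a, a miRNA of blood cells, was the clearest exception among the first 20. Its 3p arm held 82.7% of its counts in the lowest library, 85.8% at the median and 86.6% in the highest, a mean of 85.2% ± 1.55 (SD, n = 6), with a log2 ratio of 5p to 3p of -2.53 (SE 0.11, adjusted p = 8.92e-10 in edgeR's quasi-likelihood test). Its 5p arm alone ranked 31st of all mature sequences, and it carries another seed.
miR-142a-3p: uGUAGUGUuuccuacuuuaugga
miR-142a-5p: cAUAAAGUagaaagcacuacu

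miR-342, also known from blood cells, was alike, with 81.9% ± 1.24 on the 3p arm (SD, n = 6; lowest 80.1%, median 81.7%, highest 83.7%) and a log2 ratio of -2.18 (SE 0.10, adjusted p = 1.52e-09 in edgeR's quasi-likelihood test). Its 2 arms are shown because both passed 1000 CPM, at 6478 CPM for miR-342-3p and 1433 CPM for miR-342-5p.
miR-342-3p: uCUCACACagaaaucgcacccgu
miR-342-5p: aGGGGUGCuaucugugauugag

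Of the 75 miRNAs tested with a mean of at least 1000 counts, 66 had at least 90% of them on 1 arm. Besides miR-142a and miR-342, the others were miR-17 (89.1% ± 1.45 on the 5p arm), miR-106b (82.4% ± 2.68, 5p), miR-140 (83.6% ± 1.26, 5p), miR-28a (70.2% ± 4.13, 5p), miR-181c (71.4% ± 5.26, 5p), miR-30e (86.5% ± 2.13, 3p) and miR-466c (54.5% ± 2.69, 3p), as mean ± SD over n = 6 libraries. miR-140 and miR-28a were named after their values were seen. miR-466c was the only one of the 75 with less than a 2-fold difference between arms, at a log2 ratio of 5p to 3p of -0.26 (SE 0.15, adjusted p = 0.116 in edgeR's quasi-likelihood test). Its 3p sequence had the same counts as those of miR-466b-3p and miR-466p-3p in every library, so those reads cannot be given to 1 hairpin.

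**Figure D4:**
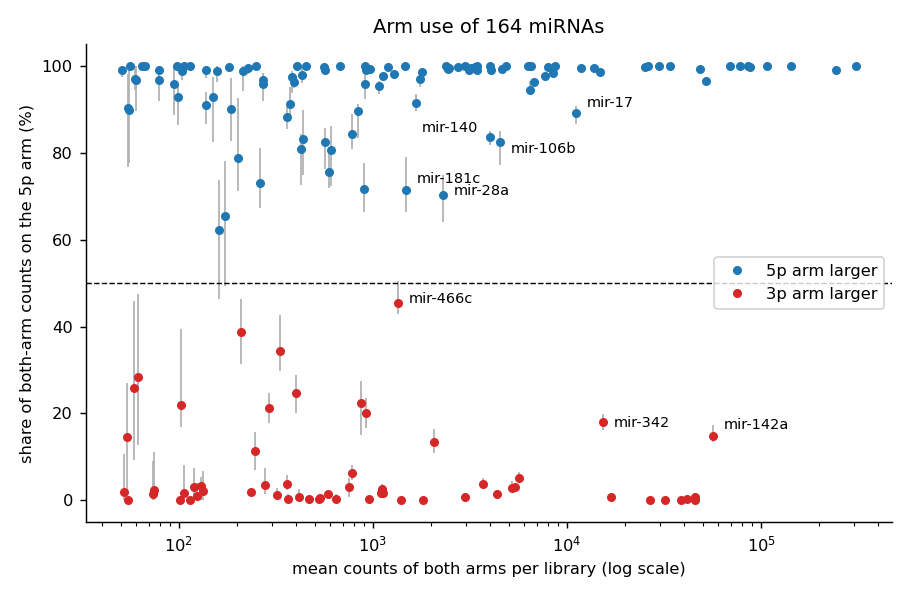
Share of both-arm counts on the 5p arm (%, vertical axis) against the mean counts of both arms per library (log scale, horizontal axis) for the 164 miRNAs tested; points are means, grey lines run from the lowest to the highest of the 6 wild-type libraries, blue marks miRNAs with more 5p counts and red those with more 3p counts. Most points lie at the upper or the lower edge, and mir-466c (54.5% on the 3p arm), mir-28a (70.2% on the 5p arm) and mir-181c (71.4% on the 5p arm) lie nearest the dashed line at 50% among those with at least 1000 counts.

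The first base differed between the arms. Among 118 miRNAs with a reference sequence for both arms, the more abundant arm began with U in 65 (55.1%) and the other arm in 20 (16.9%), while C was the first base of 18 of the more abundant arms and 44 of the others. For miRNAs led by the 5p arm the more abundant arm began with U in 43 of 74, and for those led by the 3p arm in 22 of 44. By counts, among the sequences of at least 100 CPM that have a reference sequence, also 118 but another set, the 55 with U first held 65.3% of that set's counts. These shares are a description, since many of the sequences are related.

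A sequence among the first 25 lies opposite another. miR-3074-5p, ranked 24th at 6996 CPM ± 794 (SD, n = 6), pairs over 20 bases with miR-24-3p. Their hairpins are annotated on opposite strands of the same loci, and the shared stretch is in capitals here.
miR-3074-5p: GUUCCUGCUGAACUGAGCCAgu
miR-24-3p: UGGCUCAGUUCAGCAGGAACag
Its counts were between 25.2% and 33.0% of those of miR-24-3p, with a mean of 29.9% ± 2.62 (SD, n = 6). In the precursor table the counts of mir-3074-1 and mir-24-1 differed by a ratio of 1.00064 to 1.00084 in each library, and those of mir-142b and mir-142a by 1.00214 to 1.00307. Reads of the 2 strands therefore cannot be told apart in the precursor counts of these loci. Whether the mature counts of miR-3074-5p hold reads of miR-24-3p was not tested, so its rank is uncertain.

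The precursor table gave another order. Its totals were between 41.9% and 47.6% of those of the mature table, so it cannot hold all reads that were counted as mature. It was led by mir-142b and mir-142a with 9.20% ± 1.13 and 9.18% ± 1.13 of the precursor counts (SD, n = 6), followed by mir-3074-1, mir-24-1, mir-24-2 and mir-3074-2 near 4.94% each, mir-16-1 with 4.10% and mir-16-2 with 4.00%, and mir-181a-1 with 3.26% and mir-181a-2 with 3.21%. Over 82 miRNAs with a mean of at least 1000 mature counts, precursor counts were a median of 21.2% of mature counts, under 10% for 21 miRNAs and over 100% for 10. Those with the largest ratio were mir-652 (627% ± 36.9), mir-92a (548% ± 45.4), mir-3074 (311% ± 40.9), mir-30d (228% ± 27.3) and let-7b (194% ± 12.4), and those with the smallest were mir-669p (0.947% ± 0.142), mir-669a (0.978% ± 0.144), mir-15b (1.23% ± 0.157), mir-125a (1.27% ± 0.143) and let-7j (1.55% ± 0.368), as mean ± SD over n = 6 libraries. For a miRNA with several hairpin copies, these ratios used 1 copy. For mir-92a this was mir-92a-1, with a mean of 20344 counts, and not mir-92a-2, with 10699. mir-669p and mir-669a are not 2 separate cases, since no sequence of mir-669p had counts of its own at 100 CPM or above. Precursor counts of mir-3074 cannot be told apart from those of mir-24. The ratios differed far more between miRNAs than between libraries. miR-15b-5p, the eighth most abundant mature sequence, had 1.23 precursor counts for 100 mature counts. Which reads enter the precursor table is not given in the sources used here. Whether its counts measure precursor molecules was not tested, so these ratios are not levels of processing.

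The libraries differed by more than counting error. What the mice and the preparation of the libraries each added to this spread cannot be told apart, since each mouse gave 1 library. Over the 150 sequences of at least 100 CPM the coefficient of variation (CV, SD over mean) had a median of 14.1%, against a median of 2.99% from counting error alone, and 1 of the 150 was below its counting error. edgeR's tagwise biological coefficient of variation had a median of 22.3%, and the median CV from 10 CPM was 22.1%. The edgeR value of a sequence is shrunk toward a trend over all sequences, so it can exceed the observed CV. For miR-23a-3p it was 14.8% against a CV of 2.44%. The median CV was 16.02% for the 86 sequences between 100 and 1000 CPM, 12.1% for the 43 between 1000 and 10000 CPM and 10.2% for the 21 above. Correlations of log2 CPM between pairs of libraries, over 307 sequences of at least 10 CPM, were between 0.968 and 0.990. No library stood at an extreme throughout, though WT 5 was the highest for 21 and the lowest for 18 of the 64 sequences of at least 1000 CPM, while WT 2 was the highest for 2 and the lowest for 5.

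Among sequences of at least 1000 CPM the steadiest were miR-23a-3p (CV 2.44%), let-7d-5p (3.43%), miR-21a-5p (3.96%), miR-23b-3p (5.04%) and miR-24-3p (5.17%). miR-23a-3p lay between 22715 CPM and 24346 CPM in all 6 libraries. The clusters of mir-23a and mir-23b thus supplied 3 of the 5, although miR-27a-3p, from the mir-23a cluster too, had a CV of 12.9%.

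The most variable were miR-99b-5p (CV 49.8%), let-7e-5p (34.6%) and miR-125a-5p (34.2%), which lie in 1 cluster (chr17:17830188-17830879, + strand), then miR-18a-5p (27.1%) and miR-181a-1-3p (24.2%). miR-99b-5p stood at 3549 CPM in WT 1, 1675 in WT 2, 1243 in WT 3, 1192 in WT 4, 1315 in WT 5 and 1777 in WT 6. let-7e-5p stood at 3169, 2010, 1382, 1378, 1632 and 2080 CPM in the same order. miR-125a-5p stood at 6967, 4221, 2939, 3090, 3947 and 4337 CPM. WT 1 was thus the highest for all 3 members of the cluster, and the other 5 libraries were closer together.
miR-99b-5p: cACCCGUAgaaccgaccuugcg
let-7e-5p: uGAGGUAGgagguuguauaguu
miR-125a-5p: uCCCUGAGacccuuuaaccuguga
The 3 members have different seeds, and let-7e-5p, which shares that of let-7g-5p, was 1 of the least abundant let-7 members. WT 5 was the lowest for both miR-18a-5p and miR-181a-1-3p, at 985 CPM and 791 CPM, and WT 1 the highest, at 2384 CPM and 1726 CPM. WT 1 was also the shallowest library.

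**Figure D5:**
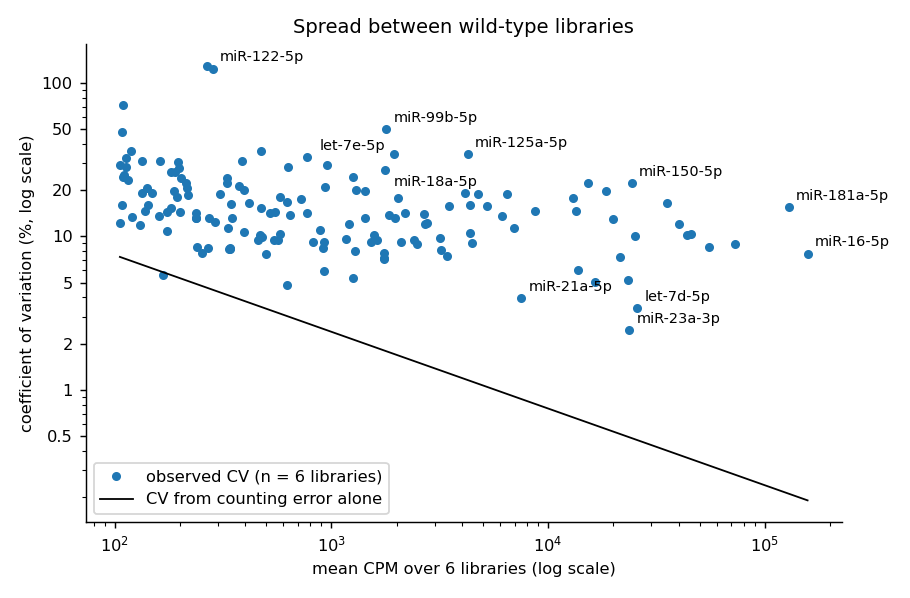
CV over the 6 wild-type libraries (%, log scale, vertical axis) against mean CPM (log scale, horizontal axis) for the 150 mature sequences of at least 100 CPM; the line is the CV that counting error alone gives. All points but 1 lie above the line, miR-122b-3p (129%), miR-122-5p (124%) and miR-99b-5p (49.8%) near the top and miR-23a-3p (2.44%) and let-7d-5p (3.43%) lowest among abundant sequences.

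Many miRNAs known from T cells were abundant. Of 60 miRNAs on a list for T and iNKT cells all had counts, 50 were over 100 CPM, 39 over 1000 CPM, and together they held 90.4% ± 0.389 of the counts (SD, n = 6). miR-142a, miR-150, miR-181a, miR-146a and miR-342, known from blood and T cells, each passed 1000 CPM, while miR-155, known for its rise on activation, stood at 70.3 CPM ± 34.1 (SD, n = 6; lowest 44.8, median 57.9, highest 134). miR-146a and miR-21a, also linked to activation, were higher, at 4443 CPM ± 401 and 7619 CPM ± 300 (SD, n = 6). The list also holds miRNAs that most tissues make, so its share does not by itself mark T cells. It was chosen with earlier results of these data known, so its high share is a description and no test.

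miRNAs of other cell types held small shares of the counts. The 3 red cell miRNAs, all with counts, summed to between 0.0112% and 0.0229% of the counts, miR-223 of myeloid cells to at most 0.00908%, the 5 of stroma, all with counts, to between 0.0061% and 0.0111%, and miR-126a of endothelium to between 0.0109% and 0.0232%. The 8 epithelial miRNAs, all with counts, summed to between 0.123% and 0.146%. Of these, 3 were over 100 CPM, miR-200c at 725 CPM, miR-141 at 275 CPM and miR-203 at 218 CPM. By contrast, miR-205 and miR-375 were at 0 in at least 1 library. The 3 neuronal miRNAs summed to between 0.0337% and 0.0818%, nearly all of it miR-128 at 475 CPM, and miR-124 was at 0 in at least 1 library. Of 3 muscle miRNAs 2 had counts, miR-1a and miR-206, and both were at 0 in at least 1 library. The part these sources had in the spread between libraries was not tested.

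miR-122, a miRNA of hepatocytes, had a wide spread. miR-122-5p stood at 83.3 CPM in WT 1, 42.3 in WT 2, 61.0 in WT 3, 41.2 in WT 4, 759 in WT 5 and 716 in WT 6, a mean of 284 CPM ± 352 (SD, n = 6). WT 5 and WT 6 stood apart from the other 4 libraries, which lay at or under 83.3 CPM, and where these counts came from was not tested. miR-122b-3p was high in the same 2 libraries, at 735 CPM in WT 5 and 691 in WT 6 against at most 58.9 in the others. Its CV of 129% was the largest of the 150 sequences, before 124% for miR-122-5p. Both sequences ranked the 6 libraries in the same order, and whether the 2 names count the same reads was not tested.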

How the data were processed

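Small RNA was sequenced from sorted thymic iNKT cells, 1 library per mouse. The authors deposited raw read counts per mature sequence and per hairpin, without normalization, made with nf-core/smrnaseq at default parameters; the aligner and the treatment of reads matching several sequences are not given in the sources used here. Columns were matched to mice by the genotype and number in their names (0 had no match), and only the 6 WT columns were used.

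Mature names with identical counts in all 6 libraries (total of at least 60) were taken once, which removed 10 rows and between 0.408% and 0.61% of a library's counts. The arm test kept all names as deposited. CPM used the remaining totals, between 1104076 and 2570420, and precursor totals were between 469117 and 1110226. No pair of libraries differed by as little as sampling noise (chi-square per degree of freedom at least 20.2 in the mature table and 15.0 in the hairpin table). Without molecular identifiers, the true error exceeds counting error.

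Arms were tested by edgeR's quasi-likelihood test with Benjamini-Hochberg adjustment, checked on simulated counts, and neighbours by exact permutation of signs. RefSeq sequences (GRCm38 table) matched 1078 of 1297 mature names, with 93.5% of the counts. GENCODE placed 1063 of 1127 hairpins on GRCm38, which is mm10, the build in the labels. Alternatives were other scalings, filters, family and cluster definitions, DESeq2, limma and leaving out each library. R 4.3.3, edgeR 4.0.16, limma 3.58.1, DESeq2 1.42.0, Python 3.11.15 and matplotlib 3.10.9 were used.

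Named miRNAs were the 20 most abundant, members of the 10 largest families and clusters, both arms of the first, balanced hairpins of at least 1000 counts, the 5 largest and 5 smallest CVs of at least 1000 CPM, the 10 most abundant hairpins, the 5 largest and smallest precursor ratios, and list members. The libraries, lists and rules were chosen with earlier results of these data known. Clusters of the mir-17, mir-25, mir-106a and mir-466 hairpins were described after their values were seen.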

Additional observations from a re-analysis of the deposited data

Results flagged for a closer look

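In 9 of 74 groups of 6 values tested, 1 library stood apart from the rest, its gap to the nearest value, as a part of the range, being over Dixon's critical value for 6 samples. For independent groups of normal values chance would flag about 1 in 20, or 3.7 of 74. These groups overlap, and some sequences, miR-99b-5p and miR-125a-5p among them, were included because their CV was among the largest. The 9 can therefore not be judged against 3.7. WT 1 stood apart for miR-99b-5p at 3549 CPM (others at most 1777) and miR-125a-5p at 6967 CPM (others at most 4337), both of 1 cluster, and for the muscle list at 0.00281% of the counts (others at most 0.000272%). WT 3 stood apart for the myeloid list, which is miR-223 alone, at 0.00908% (others at most 0.00167%) and for the neuronal list at 0.0818% (others at most 0.0465%). WT 6 stood apart for the miR-26 family at 4.43% (others at least 5.72%) and WT 5 for miR-23b-3p at 1.81% (others at most 1.66%). WT 1 stood apart with 99.9943% of let-7g counts on the 5p arm (others at least 99.9989%). WT 6 stood apart with 0.00408% of miR-103 counts on the 5p arm (others 0), which is 1 count. The cause of none of these was tested.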

How the results depend on the processing

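No paired analysis was possible because only 1 genotype was described, so that the replicate numbers pair no groups; arms were tested within libraries in every fit. Of 513 alternative values 464 stayed within 1 SD, or within 1.5 times for counts. Leaving out 1 library gave 312 of the 513, and 2 of these moved. Leaving out 1 of 6 libraries cannot move a mean share by 1 SD, so for shares these values are no check. The precursor table moved the share of the first 10 from 63.0% to 52.7% and the number holding 50% from 6 to 10, and all 20 single shares with it. Hairpins of 1 locus with nearly equal counts, such as mir-142b and mir-142a, stood there as separate rows. The 52.7% and the 10 may therefore count the same reads more than once, so they are not a like comparison with the mature table. Families by name number set miR-16 at 15.8% in place of 19.7%, miR-23 at 4.02% in place of 2.37% for miR-23a-3p, miR-142 at 2.95% in place of 2.51% and miR-93 at 0.62% in place of 2.05% for the miR-17/93 seed. Counting only unshared sequences and ranking the clusters anew, the 10 then largest held 34.96%. They were not the same 10 that held 67.4%, since mir-142a, mir-150 and the mir-25 and mir-466 clusters were now among them. The clusters of mir-15b, mir-16-1 and mir-181a-1 held 3.56%, 0.322% and 0.127% of unshared sequences. With shared sequences in full these 3 clusters held 19.3%, 16.1% and 14.9%. Raising the minimum to 500 counts left 66 and 30 miRNAs called for the 5p and 3p arm, since fewer were tested. The median CV was 22.1% from 10 CPM, and edgeR's biological coefficient of variation, a shrunken value, had a median of 22.3%. Without each library in turn, 3 to 5 neighbour pairs kept their order, with 5 pairs without WT 1 or WT 5, where 5 libraries need agree in place of 6. The call for mir-466f on the 5p arm (adjusted p = 0.0262 in edgeR's quasi-likelihood test) was lost without WT 2, WT 3, WT 4 or WT 5. Counting error gave a median CV of 4.58% between 100 and 1000 CPM, against an observed 16.02%, and it grows as counts fall.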
